A study of Homo sapiens with 9 samples.

Results

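The genes described here are the heat shock proteins, their cochaperones and the chaperonin and prefoldin subunits that carried a name on the array. Members were taken by gene symbol: symbols of the HSPA, HSPB, HSPD, HSPH, PFDN and HSF families, BAG1 to BAG5, STIP1, CHORDC1 and ST13. This gave 34 of the 14884 genes that had a named row, and 33 of them were among the 11163 genes tested. HSPB3, a muscle-type small heat shock protein, averaged a log2 level of 4.0 over the 9 arrays, under the dim limit of 4.5, and was not tested. ST13 at 4.52 and HSPB8 at 4.62 lay just above that limit. Several central members of these families, among them HSPA8, HSPA5, the HSP90 proteins, the DNAJ proteins, HSPE1, the CCT subunits, CRYAB, STUB1 and HSF2, had no row named in the annotation used and were not analysed here.

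All arrays came from HT-29, an established epithelial line grown from a human colon cancer, and all cells were taken 24 h after treatment started. The 3 groups, with 3 arrays each, were cells given rosemary extract (a mixture of plant polyphenols), cells given carnosic acid (a phenolic diterpene of rosemary), and cells given only the vehicle, which the labels call untreated. Per the design text the 3 arrays of each group are biological replicates, and no common day of culture is named. No concentration was found in the labels, so the treatments are not known to be matched in dose. RNA was hybridised to Affymetrix GeneChip 2.0 ST arrays, whose probes lie along the whole transcript. The deposited values are log2 levels, in which a difference of 1 is a doubling of signal, and array medians lay between 4.82 and 4.9. All 8 colon epithelium markers that had a named row lay above the dim limit. Their summed log2 level was 70.9 to 71.5 in rosemary extract arrays, 71.6 to 72.5 in carnosic acid arrays and 69.8 to 70.8 in untreated arrays. Within that sum, CEACAM5 and KRT20 were called higher and VIL1, KRT18 and EPCAM lower with both treatments, so the sum hides opposite changes. The other marker lists each had some named member above that limit: 2 of 4 for fibroblasts, 3 of 3 for leukocytes, 2 of 4 for hepatocytes and 1 of 3 for endothelium. LYZ, from the leukocyte list, was the brightest of these at 12.32, and it was 0.26 lower on the log2 scale with rosemary extract than in untreated cells (log2 change -0.26, adjusted p = 0.000818) and 0.18 lower than with carnosic acid (log2 change -0.18, adjusted p = 0.0191). The 3 leukocyte markers summed to 21.9 to 22.7 in rosemary extract arrays, 21.9 to 23.0 in carnosic acid arrays and 23.0 to 23.1 in untreated arrays. The part of these marker changes in the chaperone results was not tested.

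Chaperones bind unfolded stretches of other proteins and let them fold, or hand them on for degradation. HSP70 proteins do this in cycles of ATP hydrolysis, set in motion by DNAJ proteins and reset by nucleotide exchange factors such as the BAG and HSP110 proteins, while small heat shock proteins hold unfolded clients without ATP. When unfolded protein accumulates, the transcription factor HSF1 is released, binds repeats of the 5-base unit nGAAn, the heat shock element, and raises the cytosolic members; the endoplasmic reticulum and mitochondria have chaperones and stress responses of their own.

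Heat shock elements were looked for in the promoters of the members, because the response that gives these genes their name acts through them. RefSeq promoter windows (GRCh38.p14) were present for 27 of the 34 members, which had 35 promoters. The 250 bases before each start were searched for a pair of facing units, GAANNTTC or TTCNNGAA, each of which reads the same on both strands. A pair was present in 13 of the 35 member promoters (37.1%), belonging to 12 genes, and in 11.6% of all 35114 promoters. A run of 3 alternating units, which holds overlapping pairs, was present in 3 member promoters (CHORDC1, HSPA6 and HSPD1) and in 0.441% of all promoters. A match is a description of letters, not of bound sites. The following stretches of 60 bases, 5′ to 3′ on the gene's strand, are shown for members whose levels are described next, with every base of a pair in capitals.
HSPA1A: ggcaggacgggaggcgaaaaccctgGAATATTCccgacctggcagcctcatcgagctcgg
HSPA1B: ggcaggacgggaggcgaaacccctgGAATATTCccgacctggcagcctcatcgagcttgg
HSPA6: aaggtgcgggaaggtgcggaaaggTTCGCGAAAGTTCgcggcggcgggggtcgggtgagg
HSPB1: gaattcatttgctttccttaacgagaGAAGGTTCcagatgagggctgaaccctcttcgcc
BAG2: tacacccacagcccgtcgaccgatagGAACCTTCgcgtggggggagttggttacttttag
HSPD1: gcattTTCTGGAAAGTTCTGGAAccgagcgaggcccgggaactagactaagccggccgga
HSPA4L: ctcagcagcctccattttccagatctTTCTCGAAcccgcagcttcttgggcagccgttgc
CHORDC1: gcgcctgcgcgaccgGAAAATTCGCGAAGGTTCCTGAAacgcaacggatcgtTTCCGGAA
These lie at chr6:31815412-31815471 for HSPA1A and chr6:31827608-31827667 for HSPA1B, both on the plus strand, and at chr1:161524442-161524501 (plus) for HSPA6. Those of HSPB1 and BAG2 lie at chr7:76302465-76302524 and chr6:57172176-57172235, both plus. The stretch of HSPD1 is chr2:197500031-197500090 (minus), that of HSPA4L chr4:127782126-127782185 (plus) and that of CHORDC1 chr11:90223065-90223124 (minus). Over the compared bases before their starts, HSPA1A and HSPA1B carried the same letter at 235 of 249 positions (94.4%). The window of HSPA1L overlaps that of HSPA1A, so those members share a match. Other elements were found in fewer member promoters than a heat shock element pair in either form. The ER stress element was found in 0 of the 35 promoters and in 0.074% of all. The antioxidant response element TGACNNNGC, on either strand, was found in 5 of the 35 (14.3%) and in 10.9% of all. Those 5 belonged to HSF4, HSPA12A, HSPA4L, HSPA6 and HSPB3. HSPA4L had several windows, and its antioxidant response element lay in a different one from the stretch shown. A heat shock element pair was found only in the HSPA4L window that is shown. BAG3, described next, had no pair in the window, and the 60 bases from 100 to 41 before its start, chr10:119651280-119651339 (plus), are shown for comparison.
BAG3: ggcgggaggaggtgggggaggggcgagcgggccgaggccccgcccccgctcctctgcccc

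With rosemary extract the members moved in both directions. The cochaperones BAG3, BAG2 and BAG1, the mitochondrial HSP70 HSPA9, the HSP110 protein HSPH1, the prefoldin subunit PFDN2 and HSPBAP1 were higher than in untreated cells. The small heat shock protein HSPB1, 5 proteins of the HSP70 and HSP110 families, the prefoldin subunit PFDN1 and the mitochondrial chaperonin HSPD1 were lower. A gene was called when limma's moderated test, fitted to all 9 arrays and all 11163 genes, gave a Benjamini-Hochberg adjusted p under 0.05. By that rule 15 of the 33 tested members (45.5%) were called, against 38.1% of all genes tested, 7 higher (21.2%, against 21.8% of all genes) and 8 lower (24.2%, against 16.3%). The median log2 change over the 33 members was -0.003, and over all genes -0.018. The share of members called was near that of the array as a whole. For 15 members (45.5%) the rosemary extract arrays all lay on one side of the untreated ones, as did those of 46.7% of all genes. Carnosic acid called fewer members, 8 of 33 (24.2%) against 19% of all genes, with 3 higher (9.09%, against 12.9%) and 5 lower (15.2%, against 6.12%). Its arrays did not overlap the untreated ones for 12 members (36.4%), against 32.8% of all genes. Between the treatments, 6 of 33 members (18.2%) were called, 4 higher with rosemary extract (12.1%, against 8.24% of all genes) and 2 lower (6.06%, against 9.07%), while 17.3% of all genes were called. The arrays of the treatments did not overlap for 11 members (33.3%), against 31.8% of all genes. Both treatments were compared with the same untreated arrays. Leaving out 1 array gave 4 to 7 higher and 5 to 8 lower with rosemary extract, fewest when rosemary extract replicate 1 or untreated replicate 1 was missing, and 1 to 4 higher and 2 to 7 lower with carnosic acid, with 1 higher when untreated replicate 1 or carnosic acid replicate 1 or 3 was missing. In all 3 comparisons together, 16 of the 33 members were never called. The matching share of all genes was not computed, so this count is not set against the array as a whole.

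**Figure D1:**
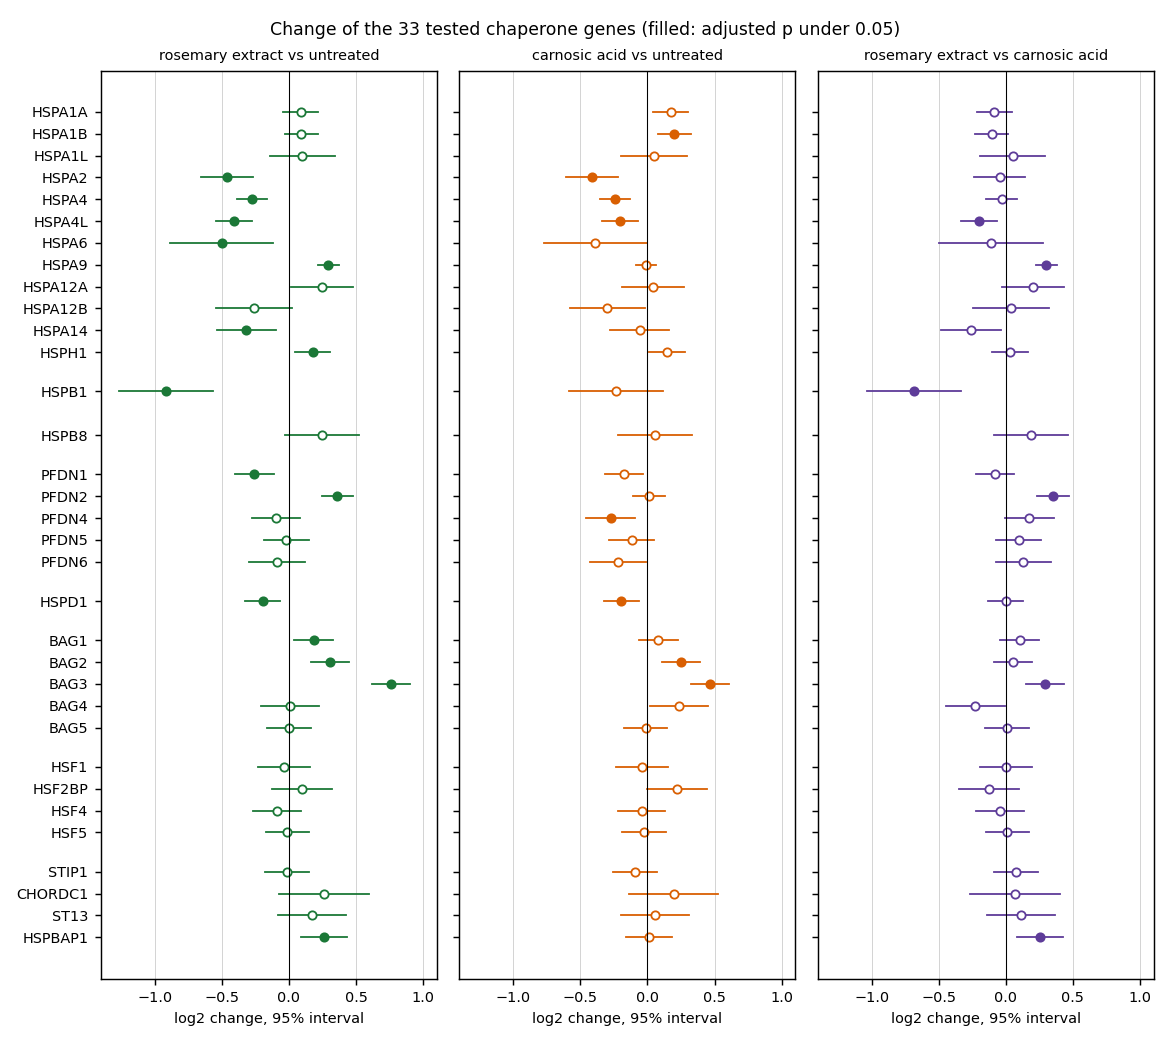
Difference of mean log2 level with its 95% interval (x axis) for each of the 33 tested genes (y axis, grouped by family) in the 3 comparisons; filled points had a limma adjusted p under 0.05. BAG3 (0.76) and HSPB1 (-0.92) lie farthest from 0 in the comparison of rosemary extract with untreated cells, and most other points lie between -0.5 and 0.4.

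BAG proteins bind the ATPase domain of HSP70 through their BAG domain and release its nucleotide. BAG3 also binds small heat shock proteins and directs aggregates to autophagy, and it is among the best known targets of HSF1. Its log2 level was 8.24, 8.15 and 8.19 in rosemary extract arrays, 7.97, 7.89 and 7.83 in carnosic acid arrays, and 7.40, 7.40 and 7.49 in untreated arrays. The 3 groups did not overlap, and every carnosic acid array lay between the other groups. BAG3 was 1.69-fold higher with rosemary extract than in untreated cells (log2 change 0.76 ± 0.065, SE; limma adjusted p = 2.92e-06) and 1.38-fold higher with carnosic acid (0.47 ± 0.065, adjusted p = 0.000516). It was also 0.29 higher on the log2 scale with rosemary extract than with carnosic acid (adjusted p = 0.00855). It was the 1 member called higher in all 3 comparisons. BAG2 inhibits the ubiquitin ligase STUB1, which marks HSP70 clients for degradation. Its levels were 9.61, 9.53 and 9.42 with rosemary extract, 9.47, 9.42 and 9.50 with carnosic acid, and 9.16, 9.31 and 9.16 in untreated cells. Both treated groups lay above every untreated array and overlapped each other. The log2 change was 0.31 ± 0.064 with rosemary extract (adjusted p = 0.00253) and 0.25 ± 0.064 with carnosic acid (adjusted p = 0.0180). The carnosic acid call was lost when carnosic acid replicate 1 or 3, or untreated replicate 1 or 3, was left out (adjusted p 0.0539 to 0.0667 in those fits, 0.0113 to 0.0667 over all alternatives). Testing all rows of the array ended it too (adjusted p = 0.0576).

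BAG1, which links HSP70 to the proteasome, had a smaller difference. Its levels were 7.31, 7.24 and 7.27 with rosemary extract, 7.22, 7.12 and 7.15 with carnosic acid, and 7.05, 7.10 and 7.11 in untreated cells. Rosemary extract arrays lay above all others, by 0.18 ± 0.066 over untreated cells (adjusted p = 0.0458). Leaving out any 1 of the 9 arrays ended that call (adjusted p 0.0524 to 0.135; 0.0364 to 0.135 over all alternatives). So did 6 other settings (adjusted p 0.0524 to 0.0936). BAG4, which silences TNF receptors, and BAG5, which carries several BAG domains, were not called in any comparison. BAG4 averaged 6.51 ± 0.07 with rosemary extract, 6.74 ± 0.18 with carnosic acid and 6.51 ± 0.08 in untreated cells (SD, n = 3 each), and its carnosic acid change of 0.24 (adjusted p = 0.126) passed the threshold only without carnosic acid replicate 2 (adjusted p = 0.0483; 0.0483 to 0.358 over all alternatives). BAG5 averaged 8.17 ± 0.11 with rosemary extract, 8.16 ± 0.08 with carnosic acid and 8.17 ± 0.06 in untreated cells.

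HSPB1, also called HSP27, is the best studied small heat shock protein and is abundant in many epithelial cancers. It had the largest fall of all members with rosemary extract. Its levels were 8.60, 8.93 and 9.10 in rosemary extract arrays, 9.28, 9.50 and 9.89 in carnosic acid arrays, and 9.61, 9.77 and 10.00 in untreated arrays. Rosemary extract arrays lay below all others, while carnosic acid and untreated arrays overlapped. HSPB1 was 1.89-fold lower with rosemary extract than in untreated cells (log2 change -0.92 ± 0.16, adjusted p = 0.000724) and 1.60-fold lower than with carnosic acid (-0.68 ± 0.16, adjusted p = 0.0119). The second call was lost without rosemary extract replicate 1 (adjusted p = 0.0569; 3.21e-05 to 0.0606 over all alternatives). Testing all rows of the array also ended that call (adjusted p = 0.0606). With carnosic acid the change was -0.24, with a 95% interval of -0.59 to 0.12 (adjusted p = 0.343; 0.0229 to 0.765 over all alternatives). Arrays within a group were more spread for HSPB1 (SD 0.25, 0.31 and 0.20 in rosemary extract, carnosic acid and untreated arrays) than for BAG3 (0.05, 0.07 and 0.05). In each of the 3 groups the HSPB1 level rose from replicate 1 to replicate 3. With a block on the replicate number in the limma fit, HSPB1 was called lower with carnosic acid (adjusted p = 0.0229). The call with carnosic acid therefore depends on whether the numbers pair the arrays, which the labels do not say. HSPB8, the partner of BAG3 in selective autophagy, averaged 4.76 ± 0.15 with rosemary extract, 4.57 ± 0.13 with carnosic acid and 4.52 ± 0.22 in untreated cells (SD, n = 3 each), and was not called.

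**Figure D2:**
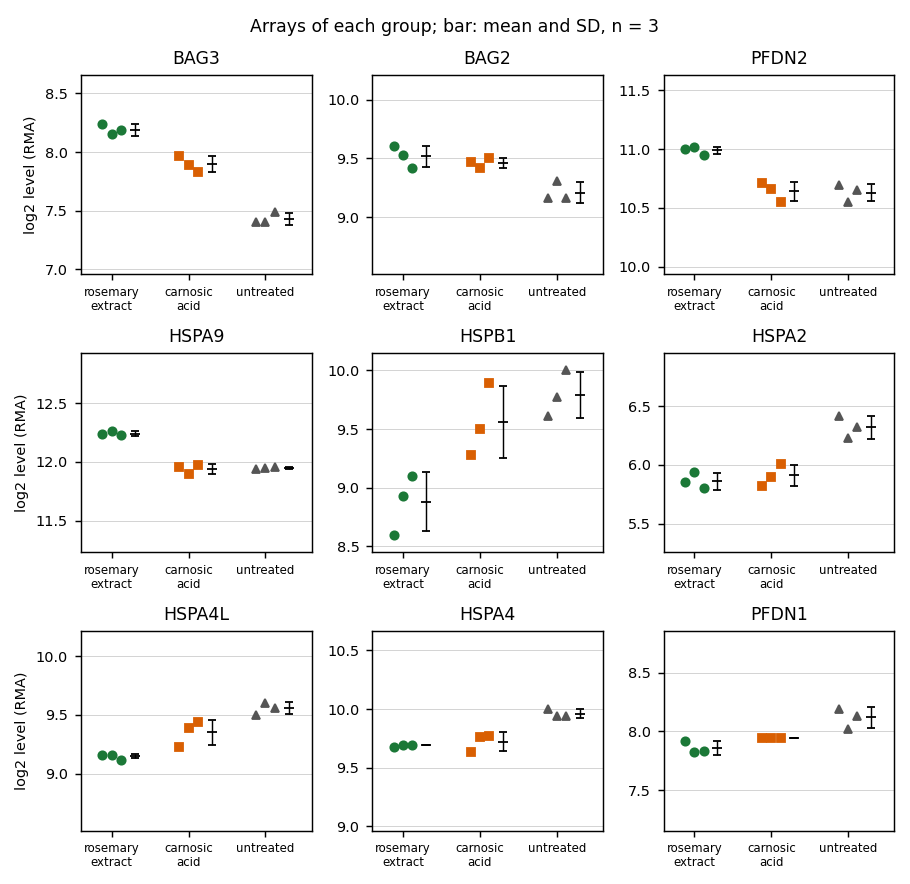
Log2 level (y axis) of 9 members on each array (points, replicates 1 to 3 from left to right), with the mean and SD of the 3 arrays beside them, for rosemary extract, carnosic acid and untreated cells. BAG3 falls into 3 separate groups, and for PFDN2, HSPA9 and HSPB1 the rosemary extract arrays lie apart from both other groups.

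The main stress-inducible HSP70 proteins are encoded by HSPA1A and HSPA1B, near-identical neighbours on chromosome 6 whose signals an array cannot be relied on to separate. HSPA1A was at 11.50, 11.60 and 11.65 with rosemary extract, 11.62, 11.67 and 11.72 with carnosic acid, and 11.38, 11.59 and 11.51 in untreated cells. HSPA1B was at 11.44, 11.54 and 11.58 with rosemary extract, 11.60, 11.63 and 11.64 with carnosic acid, and 11.30, 11.49 and 11.49 in untreated cells. Carnosic acid arrays lay above every untreated array for both genes, while rosemary extract arrays overlapped the untreated ones. HSPA1B was 0.20 ± 0.056 higher with carnosic acid (adjusted p = 0.0295), and HSPA1A by 0.17 ± 0.059, which missed the threshold (adjusted p = 0.0663). The HSPA1B call was lost without untreated replicate 1 or any 1 of the carnosic acid arrays (adjusted p 0.0630 to 0.0920) and under 5 other settings (0.0552 to 0.0918; 0.00938 to 0.0920 over all alternatives). HSPA1A passed without untreated replicate 2 (adjusted p = 0.0348; 0.0200 to 0.221 over all alternatives). It also passed with the dimmer 50% of genes left out (adjusted p = 0.045) and with a block on the replicate number (0.0200). With rosemary extract the change was 0.087 for HSPA1A (95% interval -0.04 to 0.22, adjusted p = 0.288) and 0.092 for HSPA1B (adjusted p = 0.232). The array holds 5 named rows for each of these genes, though 2 of the other HSPA1A rows hold exactly the values of the row kept and so repeat it. Over those rows the change with carnosic acid was 0.17 to 0.18 for HSPA1A and 0.18 to 0.28 for HSPA1B, and with rosemary extract 0.07 to 0.10 for HSPA1A and 0.08 to 0.17 for HSPA1B. The neighbouring testis-type gene HSPA1L was not called, with 0.04 to 0.05 over its 5 rows with carnosic acid and 0.02 to 0.10 with rosemary extract; 3 of those rows were equal to 2 decimals on every array.

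**Figure D3:**
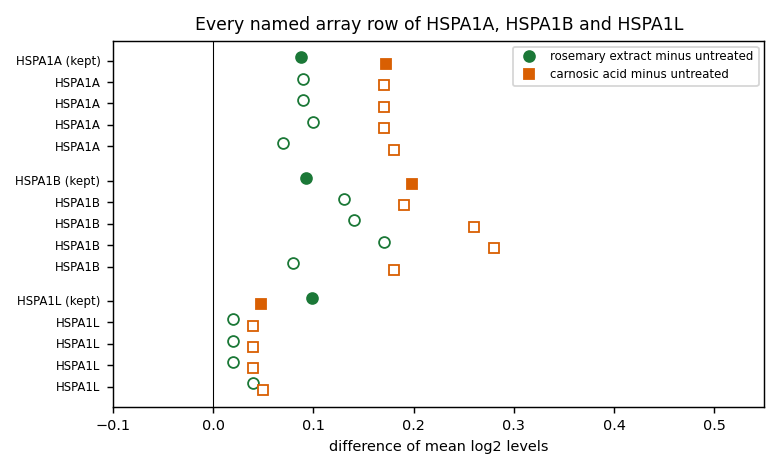
Difference of mean log2 level (x axis) for each of the 5 named array rows of HSPA1A, HSPA1B and HSPA1L (y axis); circles are rosemary extract minus untreated, squares carnosic acid minus untreated, and filled symbols the row kept for the tests. For HSPA1A and HSPA1B every square lies to the right of the circle on its row, between 0.17 and 0.28.

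HSPA6 is an HSP70 gene that human cells hardly use unless stressed, and it has a near-identical pseudogene copy, so its signal is uncertain. It lay near the dim limit in all groups, at 4.75, 4.62 and 5.08 with rosemary extract, 4.78, 5.00 and 5.00 with carnosic acid, and 5.28, 4.97 and 5.71 in untreated cells. The groups overlapped. The change with rosemary extract, -0.50 ± 0.17, was called (adjusted p = 0.0414), and that call was lost when rosemary extract replicate 1 or 2, carnosic acid replicate 2 or 3, or untreated replicate 1 or 3 was left out (adjusted p 0.0532 to 0.154; 0.00983 to 0.154 over all alternatives). Another 4 settings ended that call as well (adjusted p 0.0588 to 0.109). With carnosic acid the difference of -0.39 (adjusted p = 0.151) passed without untreated replicate 2 (adjusted p = 0.0475; 0.0475 to 0.425 over all alternatives). HSPA2, a constitutive HSP70 best known from the testis, was lower with both treatments. Its levels were 5.85, 5.94 and 5.80 with rosemary extract, 5.82, 5.90 and 6.01 with carnosic acid, and 6.42, 6.23 and 6.32 in untreated cells. Every treated array lay below every untreated one. The change was -0.46 ± 0.088 with rosemary extract (adjusted p = 0.00138) and -0.41 ± 0.088 with carnosic acid (adjusted p = 0.00684), and between the treatments -0.05 (95% interval -0.24 to 0.15).

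HSPA4 and HSPA4L belong to the HSP110 branch, which acts as a nucleotide exchange factor for HSP70 and helps it take aggregates apart. HSPA4 was at 9.68, 9.69 and 9.69 in rosemary extract arrays, 9.63, 9.76 and 9.77 in carnosic acid arrays, and 10.00, 9.94 and 9.94 in untreated arrays. HSPA4L was at 9.16, 9.16 and 9.12 with rosemary extract, 9.23, 9.39 and 9.44 with carnosic acid, and 9.50, 9.60 and 9.56 in untreated cells. For both genes all treated arrays lay below all untreated ones, and for HSPA4L the carnosic acid arrays lay between the other groups. HSPA4 fell by 0.28 (log2, SE 0.051, adjusted p = 0.00117) with rosemary extract and by 0.24 with carnosic acid (adjusted p = 0.00653). HSPA4L fell by 0.41 with rosemary extract (SE 0.061, adjusted p = 0.000244) and by 0.21 with carnosic acid (adjusted p = 0.0371), and it was 0.20 lower with rosemary extract than with carnosic acid (log2 change -0.20, adjusted p = 0.0413). The carnosic acid call of HSPA4L was lost without untreated replicate 2 or 3, carnosic acid replicate 1 or 2, or rosemary extract replicate 1 or 2 (adjusted p 0.0541 to 0.141; 0.00888 to 0.141 over all alternatives). The HSPA4L call between the treatments was lost without untreated replicate 3, carnosic acid replicate 2 or 3, or any 1 rosemary extract array (adjusted p 0.0510 to 0.152; 0.0100 to 0.152 over all alternatives). Each of these calls was also lost under 4 other settings (adjusted p 0.0505 to 0.0936 with carnosic acid and 0.0564 to 0.123 between the treatments).

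HSPH1, the third and most stress-responsive HSP110 protein, moved the other way. Its levels were 11.65, 11.70 and 11.62 with rosemary extract, 11.55, 11.68 and 11.64 with carnosic acid, and 11.37, 11.45 and 11.61 in untreated cells. Rosemary extract arrays lay above the untreated ones. The change was 0.18 ± 0.060 with rosemary extract (adjusted p = 0.0379) and 0.15 ± 0.060 with carnosic acid (adjusted p = 0.120). The first call was lost without untreated replicate 1 or 2 or any 1 rosemary extract array (adjusted p 0.0513 to 0.152; 0.00354 to 0.152 over all alternatives), and the second was gained without untreated replicate 3 (adjusted p = 0.0163; 0.0163 to 0.358 over all alternatives). Under 4 other settings the first call was lost as well (adjusted p 0.0613 to 0.105). HSPA14, which works with a DNAJ protein at the ribosome, was at 7.93, 7.87 and 8.05 with rosemary extract, 8.19, 8.01 and 8.45 with carnosic acid, and 8.34, 8.26 and 8.21 in untreated cells. Its fall with rosemary extract (-0.32 ± 0.10, adjusted p = 0.0266) was lost without untreated replicate 1 or 2 or rosemary extract replicate 1 or 2 (adjusted p 0.0618 to 0.101; 0.00647 to 0.101 over all alternatives). Testing all rows of the array ended that call too (adjusted p = 0.0733). HSPA14 was also 0.26 below carnosic acid on the log2 scale (log2 change -0.26, adjusted p = 0.111), which passed the threshold without carnosic acid replicate 2 (adjusted p = 0.0291; 0.0291 to 0.355 over all alternatives). HSPA12A and HSPA12B, distant HSP70 relatives, were not called. For HSPA12A the difference with rosemary extract was 0.25 (adjusted p = 0.0893), which passed without carnosic acid replicate 2 (adjusted p = 0.0467; 0.0458 to 0.289 over all alternatives). That difference also passed with only the 6 arrays compared (adjusted p = 0.0458). A dimmer named row of HSPA12A, with a mean of 3.57 under the dim limit, was not tested and gave 0.01 with rosemary extract. For HSPA12B the difference was -0.26 with rosemary extract and -0.30 with carnosic acid (adjusted p = 0.137 and 0.133).

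In mitochondria, HSPA9 (mortalin) pulls imported proteins across the inner membrane and folds them, and HSPD1 (HSP60) forms the folding chamber with HSPE1. The levels of these genes moved in opposite directions with rosemary extract. HSPA9 was at 12.24, 12.26 and 12.23 in rosemary extract arrays, 11.96, 11.90 and 11.97 in carnosic acid arrays, and 11.94, 11.95 and 11.96 in untreated arrays. Rosemary extract arrays lay apart, and carnosic acid arrays spanned the untreated ones. HSPA9 was 1.23-fold higher with rosemary extract than in untreated cells (log2 change 0.29 ± 0.035, adjusted p = 4.12e-05) and 0.30 higher than with carnosic acid (adjusted p = 0.000112). With carnosic acid the difference was -0.0091 (95% interval -0.09 to 0.07, adjusted p = 0.890). HSPD1 was at 9.77, 9.85 and 9.71 with rosemary extract, 9.71, 9.74 and 9.88 with carnosic acid, and 10.02, 9.92 and 9.99 in untreated cells. Both treated groups lay below the untreated arrays, by 0.20 on the log2 scale in each case (log2 change -0.20 ± 0.059; adjusted p = 0.0215 with rosemary extract and 0.0399 with carnosic acid). The rosemary extract call was lost without untreated replicate 1 or 3 or rosemary extract replicate 1 or 3 (adjusted p 0.0526 to 0.0749; 0.00288 to 0.0749 over all alternatives). It was lost under 2 other settings too (adjusted p 0.0534 and 0.0603). The carnosic acid call was lost without untreated replicate 1 or 3, carnosic acid replicate 1 or 2, or rosemary extract replicate 1 (adjusted p 0.0582 to 0.147), and under 5 other settings (0.0534 to 0.103; 0.00617 to 0.147 over all alternatives).

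Prefoldin is a hexamer of different subunits that takes new actin and tubulin chains from the ribosome to the CCT chaperonin. Its subunits did not move together. VBP1, the remaining subunit, lay outside the symbols that define the members; it was lower with rosemary extract (-0.27 ± 0.077, adjusted p = 0.0157), a call lost without untreated replicate 3 (adjusted p = 0.0568; 0.00402 to 0.0568 over all alternatives), and its difference with carnosic acid was -0.22 (adjusted p = 0.0694). PFDN2 was at 11.00, 11.02 and 10.95 in rosemary extract arrays, 10.71, 10.66 and 10.55 in carnosic acid arrays, and 10.69, 10.55 and 10.65 in untreated arrays. It was 1.28-fold higher with rosemary extract than in untreated cells (log2 change 0.36 ± 0.054, adjusted p = 0.000238) and 0.35 higher than with carnosic acid (adjusted p = 0.000865), and the carnosic acid and untreated arrays overlapped (0.0099, adjusted p = 0.922). PFDN1 was at 7.92, 7.82 and 7.83 with rosemary extract, 7.94, 7.94 and 7.94 with carnosic acid, and 8.19, 8.02 and 8.13 in untreated cells. It was lower with rosemary extract (-0.26 ± 0.065, adjusted p = 0.00794). With carnosic acid all arrays also lay below the untreated ones, but the change of -0.18 missed the threshold (adjusted p = 0.0830) and passed it under cyclic loess (0.0266), median centring (0.0285) and without untreated replicate 2 (0.0470), with 0.0266 to 0.231 over all alternatives. PFDN4 was at 7.44, 7.24 and 7.34 with rosemary extract, 7.10, 7.19 and 7.20 with carnosic acid, and 7.57, 7.33 and 7.42 in untreated cells. It was lower with carnosic acid (-0.27 ± 0.083, adjusted p = 0.0404). That call was lost without untreated replicate 1 or 3, any 1 carnosic acid array or rosemary extract replicate 3 (adjusted p 0.0509 to 0.139; 0.0169 to 0.139 over all alternatives). Another 3 settings ended it too (adjusted p 0.0528 to 0.0886). PFDN5 and PFDN6 were not called in any comparison, though PFDN6 (-0.22 with carnosic acid, adjusted p = 0.134) passed without untreated replicate 2 (adjusted p = 0.0168; 0.0168 to 0.334 over all alternatives).

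The heat shock factors were not called in any comparison on the rows tested. HSF1, the factor that drives the heat shock response and is itself controlled mainly at the protein level, was at 7.73, 7.94 and 7.81 with rosemary extract, 7.77, 7.71 and 8.01 with carnosic acid, and 7.91, 7.85 and 7.84 in untreated cells. All 3 groups overlapped. Its log2 change was -0.04 with either treatment, with a 95% interval of -0.23 to 0.15 (adjusted p = 0.778 with rosemary extract and 0.809 with carnosic acid). On the rows tested for HSF2BP, a partner of HSF2, and for HSF4 and HSF5 the groups overlapped too, and the lowest unadjusted limma p among the 4 genes was 0.0553, for HSF2BP with carnosic acid. The pair of named rows for HSF4 disagreed. The row tested gave -0.09 with rosemary extract and -0.04 with carnosic acid, and the dimmer row, which was not tested, 0.32 with rosemary extract and 0.23 with carnosic acid. On the dimmer row HSF4 was at 6.53, 6.51 and 6.42 with rosemary extract, 6.42, 6.42 and 6.34 with carnosic acid, and 6.19, 6.30 and 6.02 in untreated cells, so that all treated arrays lay above the untreated ones. Among the remaining cochaperones, STIP1 (HOP), which passes clients from HSP70 to HSP90, was at 9.28, 9.40 and 9.31 with rosemary extract, 9.23, 9.19 and 9.34 with carnosic acid, and 9.32, 9.22 and 9.50 in untreated cells. The groups overlapped (rosemary extract against untreated -0.02, 95% interval -0.18 to 0.15, adjusted p = 0.888). CHORDC1, an HSP90 cochaperone, was at 6.71, 6.35 and 6.01 with rosemary extract, 6.26, 6.29 and 6.32 with carnosic acid, and 5.91, 6.23 and 6.15 in untreated cells. Among members, its 3 rosemary extract arrays were the most spread (SD 0.35), and its change of 0.26 (adjusted p = 0.210) passed the threshold only without rosemary extract replicate 3 (0.44, adjusted p = 0.0235; 0.0235 to 0.691 over all alternatives). ST13 (HIP), which steadies HSP70 in its client-bound state, was not called. HSPBAP1, which binds HSPB1, was at 7.78, 7.82 and 7.57 with rosemary extract, 7.49, 7.42 and 7.49 with carnosic acid, and 7.42, 7.53 and 7.43 in untreated cells. Rosemary extract arrays lay above all others, by 0.26 ± 0.079 over untreated cells (adjusted p = 0.0201) and by 0.25 over carnosic acid (adjusted p = 0.0465). The first call was lost without untreated replicate 1 or 3 or rosemary extract replicate 1 or 2 (adjusted p 0.0543 to 0.0924; 0.00364 to 0.0924 over all alternatives), and the second without any 1 array other than rosemary extract replicate 3 (0.0506 to 0.191; 0.00967 to 0.191 over all alternatives). That second call also ended under 5 other settings (adjusted p 0.0561 to 0.121).

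**Figure D4:**
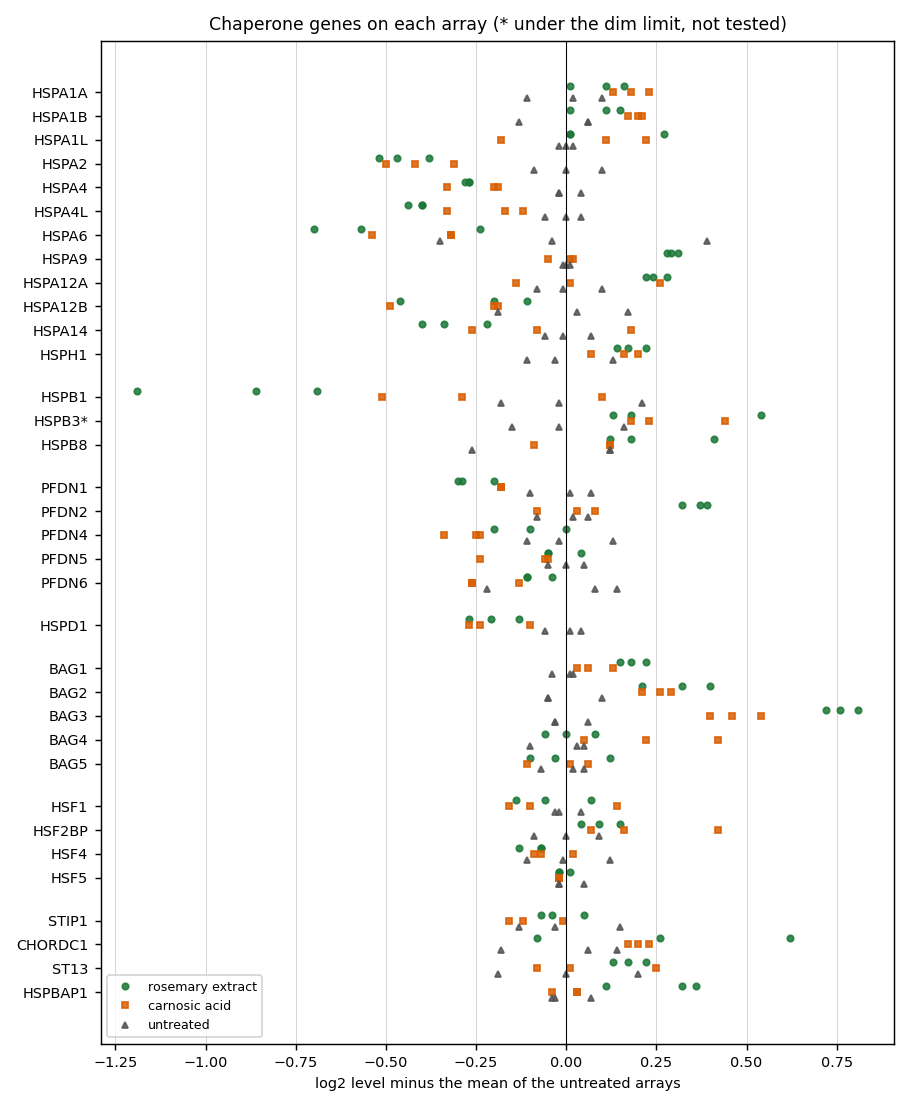
Log2 level of each of the 34 members (y axis, grouped by family) on each of the 9 arrays, as its difference from the mean of the untreated arrays (x axis). Green circles are rosemary extract arrays, orange squares carnosic acid arrays and grey triangles untreated arrays, and the rosemary extract points stand apart to the right for BAG3 and PFDN2 and to the left for HSPB1.

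Genes that work beside these families, or that were listed as targets of heat shock factors, were also measured. The activity of the factors was not measured, and other regulators may act on the listed targets. Of 15 listed heat shock factor targets outside the chaperone families, 9 were tested. With rosemary extract 4 were called higher and 3 lower (21.8% and 16.3% of all genes were), and with carnosic acid 4 higher and 2 lower (12.9% and 6.12% of all genes). HMOX1, the haem-degrading enzyme that NRF2 also controls, was higher by 2.96 ± 0.087 with rosemary extract and by 0.97 ± 0.087 with carnosic acid (adjusted p = 4.08e-09 and 3.08e-05). DEDD2 was higher by 1.07 with rosemary extract and 0.66 with carnosic acid (adjusted p = 2.68e-07 and 6.73e-05). DUSP1, a phosphatase of stress kinases, was higher by 0.88 with rosemary extract and 0.44 with carnosic acid (9.48e-06 and 0.00435), and IER5, which promotes HSF1 activity, by 0.50 with rosemary extract and 0.67 with carnosic acid (0.000587 and 0.000292). FOS and JUN, partners in the AP-1 factor, were lower. FOS changed by -0.82 with rosemary extract and -0.27 with carnosic acid (adjusted p = 4.63e-06 and 0.0283), and JUN by -0.47 with rosemary extract and -0.53 with carnosic acid (0.000304 and 0.000464). The carnosic acid call of FOS ended when carnosic acid replicate 1 or 2, or untreated replicate 1 or 3, was left out (adjusted p 0.0859 to 0.0990; 0.00027 to 0.0990 over all alternatives). Testing all rows of the array ended it as well (adjusted p = 0.078). MRPL18 was also called lower with rosemary extract (-0.19, limma adjusted p = 0.0210) but not with carnosic acid, and UBB and ATF3 were not called with either treatment. The median log2 change of the 9 targets was 0.01 with rosemary extract and 0.001 with carnosic acid, against -0.018 and -0.011 over all genes.

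**Figure D5:**
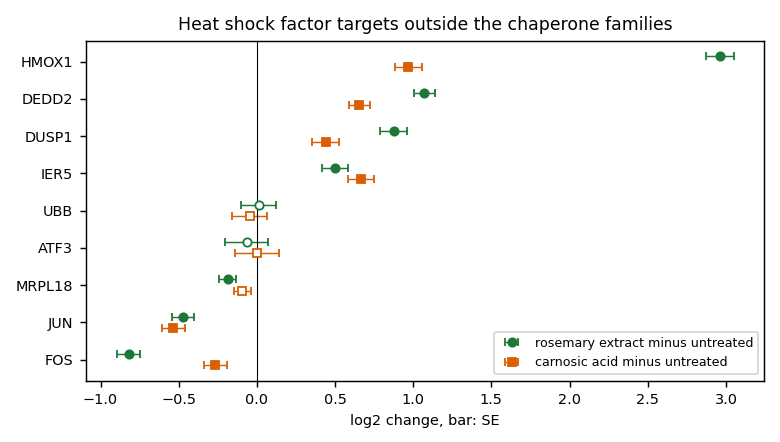
Log2 change with its SE (x axis) of the 9 tested heat shock factor targets that belong to no chaperone family (y axis); circles are rosemary extract minus untreated, squares carnosic acid minus untreated, and filled symbols had a limma adjusted p under 0.05. HMOX1 lies at 2.96 and 0.97 and FOS at -0.82 and -0.27.

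Other folding helpers likewise moved both ways. Of 14 tested cochaperones and chaperone-like genes outside the members, 4 were called higher and 4 lower with rosemary extract, against 21.8% and 16.3% of all genes, and 2 higher and 1 lower with carnosic acid, against 12.9% and 6.12%. TTC9 and TTC1, tetratricopeptide proteins, were higher by 1.17 and 0.74 with rosemary extract (adjusted p = 7.69e-06 and 3.83e-06) and by 0.89 and 0.33 with carnosic acid (0.000291 and 0.00505). With rosemary extract PIH1D1, an HSP90 cochaperone, changed by -0.54 (adjusted p = 0.000549) and the HSP90-bound prolyl isomerase FKBP5 by -0.49 (adjusted p = 0.000496). In mitochondria, TRAP1, the organelle's HSP90, was lower with both treatments (-0.55 with rosemary extract, adjusted p = 1.15e-05, and -0.30 with carnosic acid, adjusted p = 0.00316), and CLPX, an unfoldase, was higher by 0.33 with rosemary extract (adjusted p = 0.00288). Of 7 tested mitochondrial chaperones and proteases, rosemary extract called 2 higher and 2 lower, against 21.8% and 16.3% of all genes. Among 12 tested helpers of prefoldin, the chaperonins and tubulin folding (VBP1 among them) it called 4 higher and 3 lower, where 38.1% of all genes were called, and the tubulin cofactors TBCE (0.68, adjusted p = 5.62e-05) and TBCD (-0.82, adjusted p = 2.55e-05) stood at the opposite ends of that list. A list of 21 genes of DNA replication and mitosis was examined beside the members. It was taken because these genes had earlier been seen to fall, so its counts are a description and not a test. All 21 were called lower with rosemary extract (median log2 change -1.77), against 16.3% of all genes. With carnosic acid 13 of 21 were called lower (median -0.36), against 6.12% of all genes. Whether that shift has a part in the changes of the chaperone genes was not tested.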

How the data were processed

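Total RNA was hybridised to 9 arrays, and the authors deposited RMA values made with the oligo package, per the labels. RMA subtracts background, gives the arrays a common distribution and summarises probes. The log2 scale was read from the deposited values, with versions and array annotation not given in the sources used here. RMA gives no detection call and compresses large changes, and the number of arrays limits the precision. Of 53617 rows, 16098 had 1 gene symbol in the platform annotation and 37519 were unnamed. The brightest row per gene was kept, and 3721 genes (25%) under a log2 mean of 4.5 were left out as dim. From the rule, 3 hyphenated symbols and 1 pseudogene were left out. Columns of other series numbered 0, and 0 pairs of arrays were identical.

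Group means were fitted with limma 3.58.1 in R 4.3.3 (eBayes with a variance trend, 6 residual degrees of freedom, two-sided), with adjustment over the 11163 genes tested. The p-values set a difference of group means against the spread between these arrays within groups, moderated over the genes tested. The members and lists were chosen with earlier results of these data known. Members given on every array were well-known chaperones and, per comparison, up to 8 rises and 8 falls among called members whose groups did not overlap; HSPA6 and CHORDC1 were added after their values were seen. Named genes outside the members were chosen after seeing them, as the largest changes with rosemary extract in each list, or as targets called with both treatments. MRPL18, UBB and ATF3 were named to complete the tested heat shock factor targets. Alternatives were another scaling, filter, row rule, set of arrays or variance model, a block on the replicate number, and each array left out. The labels give all groups replicate numbers 1 to 3, but same-numbered arrays did not deviate together in every pair (correlations -0.219 to 0.238). In the test on simulated data for rosemary extract against untreated, 200 of 11163 genes were changed. There 73.3% of 1.5-fold changes and 10.7% of 1.2-fold changes were recovered, so small changes were often missed in that setting. In the data 38.1% of genes were called, which loosens the adjusted threshold. The recovery in the data may therefore differ and was not tested.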

Additional observations from a re-analysis of the deposited data

How the results depend on the processing

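Of the 29 member calls, 15 were kept under every alternative run. For rosemary extract against untreated these were 9 of 15 (BAG2, BAG3, HSPA2, HSPA4, HSPA4L, HSPA9, HSPB1, PFDN1 and PFDN2), for carnosic acid 3 of 8 (BAG3, HSPA2 and HSPA4), and between the treatments 3 of 6 (BAG3, HSPA9 and PFDN2). With all rows of the array tested, the counts were 5 lower (8 as reported) for rosemary extract, 1 higher (3) and 2 lower (5) for carnosic acid, and 0 lower (2) between the treatments. Higher calls were lost there too: BAG1 and HSPH1 with rosemary extract (limma adjusted p = 0.0688 and 0.105) and HSPBAP1 between the treatments (0.121). The lower count for carnosic acid was also 2 without the dim filter, 2 with only the 6 arrays compared and 3 without the variance trend, and that between the treatments 1 in each of these. More features to adjust over, or fewer arrays, are part of how those settings are built; otherwise the cause was not tested. Leaving out each array in turn gave, for rosemary extract, 4 to 7 higher (4 without untreated replicate 1 or rosemary extract replicate 1 or 2) and 5 to 8 lower (5 without untreated replicate 1 or rosemary extract replicate 1). For carnosic acid it gave 1 to 4 higher (1 when carnosic acid replicate 1 or 3, or untreated replicate 1, was left out) and 2 to 7 lower (2 without untreated replicate 3 or carnosic acid replicate 1 or 2, and 3 without untreated replicate 1 or rosemary extract replicate 1). Between the treatments it gave 3 to 4 higher and 0 to 2 lower (0 without rosemary extract replicate 1, and 1 without rosemary extract replicate 2 or 3, carnosic acid replicate 3 or untreated replicate 3).

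With a block on the replicate number, rosemary extract called 6 members higher and 8 lower, carnosic acid 4 and 5, and the direct comparison 3 and 2. HSPA1A (adjusted p = 0.0200) and HSPB1 (0.0229) were then called with carnosic acid, and the calls of HSPD1 with carnosic acid (0.0560), BAG1 with rosemary extract (0.0744) and HSPBAP1 between the treatments (0.0567) were lost. No blocked count moved by over 1.5 times. The numbers are shared by label only.

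Changes near 0 switched sign. Under cyclic loess and median centring the carnosic acid changes were -0.029 and -0.038 for HSPBAP1, -0.032 and -0.037 for PFDN2 and -0.031 and -0.038 for YME1L1, and FKBP5 was at -0.007 under centring. Between the treatments HSF1 was at -0.001 under cyclic loess, and HSPD1 at 0.005 and 0.014 under the 2 scalings. Leaving out each array gave, for rosemary extract, -0.094 to 0.011 for HSF1 and -0.078 to 0.060 for STIP1. For carnosic acid it gave -0.130 to 0.023 for HSF1, -0.175 to 0.046 for HSPA14, -0.025 to 0.014 for HSPA9, -0.009 to 0.042 for HSPBAP1, -0.029 to 0.054 for PFDN2, -0.004 to 0.073 for FKBP5 and -0.016 to 0.031 for YME1L1. Between the treatments it gave -0.061 to 0.092 for HSF1, -0.092 to 0.002 for HSPA2, -0.037 to 0.051 for HSPD1, -0.005 to 0.057 for HSPH1, -0.013 to 0.121 for JUN and -0.054 to 0.186 for PDCL3.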
